A study of Mus musculus with 10 samples.

Results

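Sorl1, Srpr, Trappc4, Fez1, Tirap, Pafah1b2, Coro2b and Spa17 are 8 genes of protein sorting, secretion, cargo transport and adaptor function that lie on mouse chromosome 9 around Pou2f3. They are 8 of the 18193 genes that the arrays measure through a probe set of 1 gene, and 17 of the 45037 probe sets tested belong to them. The genes were chosen from the difference between genotypes with earlier results of these arrays known, so that difference is described for them and is not tested. Each probe set, a group of short probes read as 1 value, was kept apart.

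The study set Skn-1/Pou2f3-deficient male mice (5 arrays, called knockouts below) against wild-type males (5 arrays). Pou2f3, also called Skn-1, encodes a POU-domain transcription factor. The gastrocnemius, a calf muscle, was taken at 12 to 16 weeks of age after 18 h without food, so the fast is shared by all arrays. The strain given for both genotypes is a mix of 129 and C57BL/6J, with over 10 generations of crossing to C57BL/6J listed for all arrays. The labels do not give the strain of the chromosome 9 DNA around Pou2f3 in either genotype, so loss of the gene and any strain difference in the linked DNA cannot be told apart. The design asks how muscle transcripts of fasted mice depend on Pou2f3. The whole muscle was measured, and fewer cells of a type cannot be told apart from less RNA per cell.

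Proteins bound for the membrane or for secretion enter the endoplasmic reticulum while they are made. The signal recognition particle (SRP) halts the ribosome and hands it to the SRP receptor, whose alpha subunit is the product of Srpr. Vesicles then carry cargo to the Golgi, where the TRAPP complex, with the Trappc4 product as a core subunit, tethers them and activates Rab1. Sorting receptors of the VPS10 family, such as the Sorl1 product, return cargo from endosomes to the Golgi with the retromer. Fez1 couples cargo to kinesin-1, and Tirap is the adaptor that brings Myd88 to Toll-like receptors 2 and 4. Pafah1b2 encodes a catalytic subunit of the platelet-activating factor acetylhydrolase that binds Lis1, a dynein regulator. Coro2b is an actin-binding coronin, and Spa17 is a sperm protein with a domain like that of the RII subunit of protein kinase A, which binds anchoring proteins.

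Because the inactivated gene encodes a POU factor, the promoter windows of the members were searched for the octamer that such factors bind. RefSeq windows (GRCm38.p6, 250 bases before to 50 after a start) were held for 7 of the 8 genes, 15 windows in all. The octamer ATGCAAAT, on either strand, was in 0 of the 15 windows and in 1.74% of all 32851 windows. The shorter ATGCAAA, which every octamer contains, was in 1 of the 15 and in 4.63% of all. The E-box CAGCTG, a motif of muscle regulators, was in 7 of the 15 windows, from 5 genes, and in 16.3% of all, and some windows of a gene overlap each other. A match in these letters is not a binding site, and a window without one says nothing of the factor. Windows are printed 5′ to 3′ on the gene's strand for Tirap and Srpr, which varied together across arrays, for Sorl1, which had the widest difference, and for the Pafah1b2 window with the shorter motif. Capitals mark a motif.
Tirap chr9:35199916-35200215, minus strand: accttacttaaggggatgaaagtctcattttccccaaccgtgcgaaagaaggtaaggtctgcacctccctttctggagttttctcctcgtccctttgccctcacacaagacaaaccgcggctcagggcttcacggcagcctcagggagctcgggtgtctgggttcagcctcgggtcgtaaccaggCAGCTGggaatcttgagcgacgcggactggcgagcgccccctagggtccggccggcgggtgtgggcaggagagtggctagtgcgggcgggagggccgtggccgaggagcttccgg
Srpr chr9:35210953-35211252, plus strand: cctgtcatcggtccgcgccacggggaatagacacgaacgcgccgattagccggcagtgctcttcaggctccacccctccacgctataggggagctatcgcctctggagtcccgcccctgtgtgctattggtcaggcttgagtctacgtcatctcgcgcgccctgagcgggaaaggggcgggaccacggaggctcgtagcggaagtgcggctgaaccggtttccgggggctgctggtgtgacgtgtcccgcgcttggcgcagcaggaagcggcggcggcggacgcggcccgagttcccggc
Sorl1 chr9:42124248-42124547, minus strand: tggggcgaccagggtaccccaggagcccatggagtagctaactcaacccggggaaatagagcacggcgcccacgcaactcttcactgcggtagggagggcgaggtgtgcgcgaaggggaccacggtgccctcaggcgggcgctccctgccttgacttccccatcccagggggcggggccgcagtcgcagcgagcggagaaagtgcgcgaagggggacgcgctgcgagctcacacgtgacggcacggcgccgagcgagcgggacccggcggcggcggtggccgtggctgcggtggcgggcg
Pafah1b2 chr9:45985345-45985644, minus strand: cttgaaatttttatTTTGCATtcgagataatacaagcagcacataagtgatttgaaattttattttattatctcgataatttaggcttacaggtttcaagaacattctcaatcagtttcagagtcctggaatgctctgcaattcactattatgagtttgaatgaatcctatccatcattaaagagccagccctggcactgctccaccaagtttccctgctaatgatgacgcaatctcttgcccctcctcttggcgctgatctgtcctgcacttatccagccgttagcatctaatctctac
The Tirap window holds CAGCTG at position −65 from the start, and the Srpr and Sorl1 windows hold neither motif. The Pafah1b2 window is one of 4 for that gene and holds the shorter motif, read on the opposite strand, at position −236 from the start.

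The deposited values are read as log2 from their range, and the log base is not stated in the sources used here. Probe sets with an SD over the 10 arrays of no more than 0.01, 86.2% of all, are called low variation here, and a difference there has no size that can be read as a fold. The sources used here do not say which step made these values so even. Whether the same step bounds the low values of Fez1, Spa17 and Pafah1b2, and with them their folds, was not tested. Array medians lay between 6.23 and 6.24. The single Pou2f3 probe set was of low variation and stood at 6.47 in all arrays, wild types included, so it does not check the labels. The part of the gene removed is not given either. The skeletal muscle markers were bright, with a mean of 13.18 over 12 of 12 genes. With 5 arrays a genotype, precision is limited by that number.

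Of the 17 member probe sets, 10 varied on an ordinary scale and covered all 8 genes. In 7 of the 10 the genotypes did not overlap, in 5 with the knockouts lower and in 2 with the knockouts higher. Over the 5446 probe sets of 1 gene and ordinary variation, 4.13% showed no overlap, 0.624% as lower and 3.51% as higher in knockouts. The members were selected on this contrast, so nothing is read from their count. Their differences ran from −0.68 for Sorl1 to 0.61 for Tirap, knockout minus wild type on the log2 scale.

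**Figure D1:**
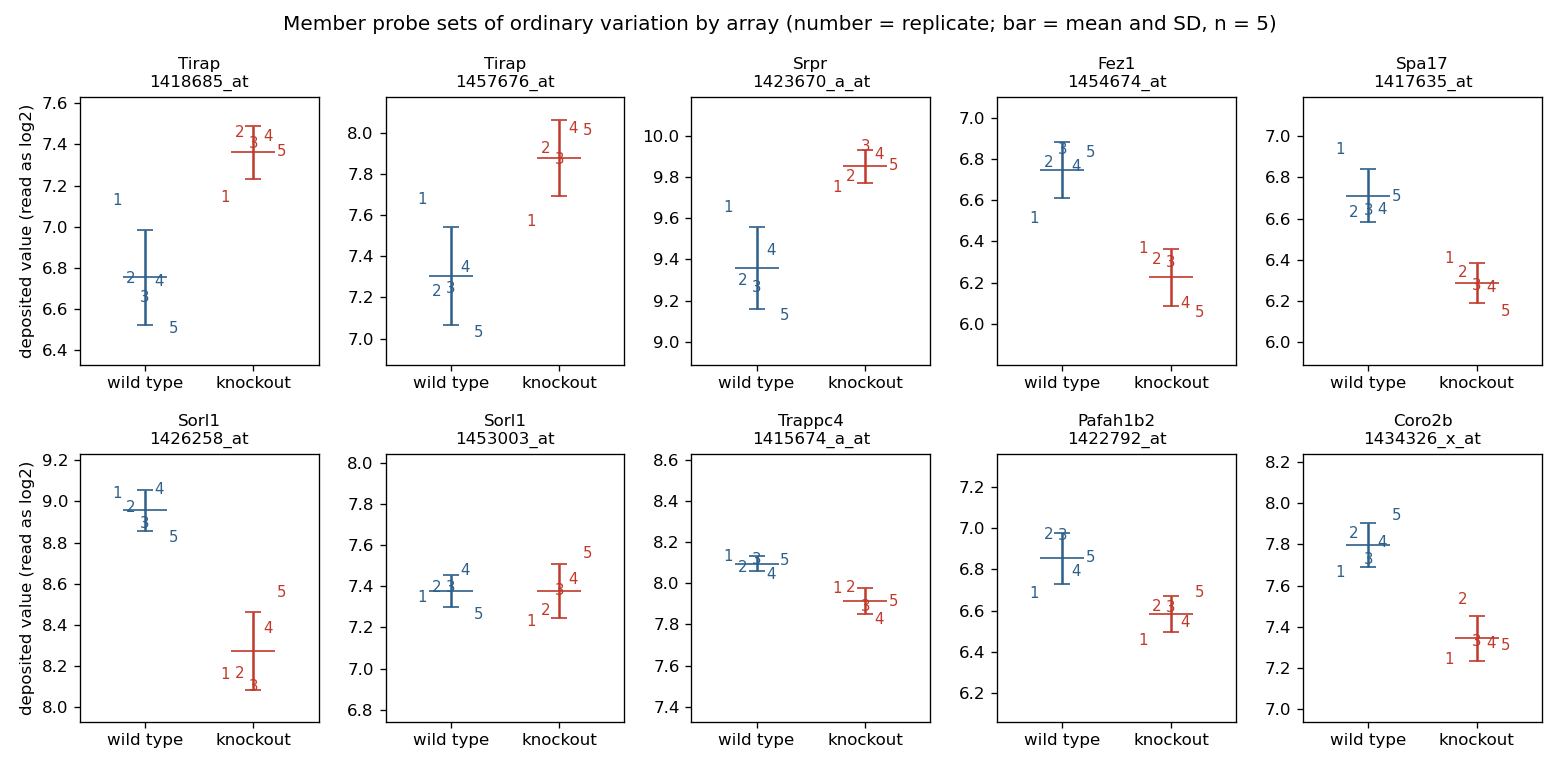
Deposited values (read as log2) of the 10 member probe sets of ordinary variation, with wild types in blue, knockouts in red, digits for the replicate number and bars for mean and SD (n = 5 per genotype). Each panel spans the same height of 1.3. Sorl1 1426258_at separates the genotypes by the widest gap, and its other probe set, 1453003_at, does not separate them.

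Sorl1, the sorting receptor that lies 19 places before Pou2f3 in gene order, was lower in knockouts through one probe set and level through another. On 1426258_at the wild types stood at 9.04, 8.97, 8.89, 9.06 and 8.83, and the knockouts at 8.16, 8.17, 8.10, 8.38 and 8.56. The groups did not overlap, and the lowest wild type lay 0.27 above the highest knockout, knockout 5. The means were 8.96 ± 0.0991 (SD, n = 5) in wild types and 8.27 ± 0.191 (SD, n = 5) in knockouts, a log2 difference of −0.68 ± 0.10 SE, which puts wild types at 1.61 times the knockout level.

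The second Sorl1 probe set, 1453003_at, gave another picture. Wild types stood at 7.34, 7.40, 7.39, 7.48 and 7.27, and knockouts at 7.23, 7.28, 7.38, 7.43 and 7.56. The groups lay over each other, with the lowest and the highest arrays both being knockouts, and the means differed by 0.00077. The gap between the probe sets within an array was 0.726 to 0.997 in knockouts and 1.497 to 1.696 in wild types; these ranges do not overlap. Within each genotype they nevertheless varied together (r = 0.815 over the deviations of 10 arrays from their genotype means, 0.854 over the 5 knockouts and 0.695 over the 5 wild types). The third Sorl1 probe set was of low variation.

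**Figure D2:**
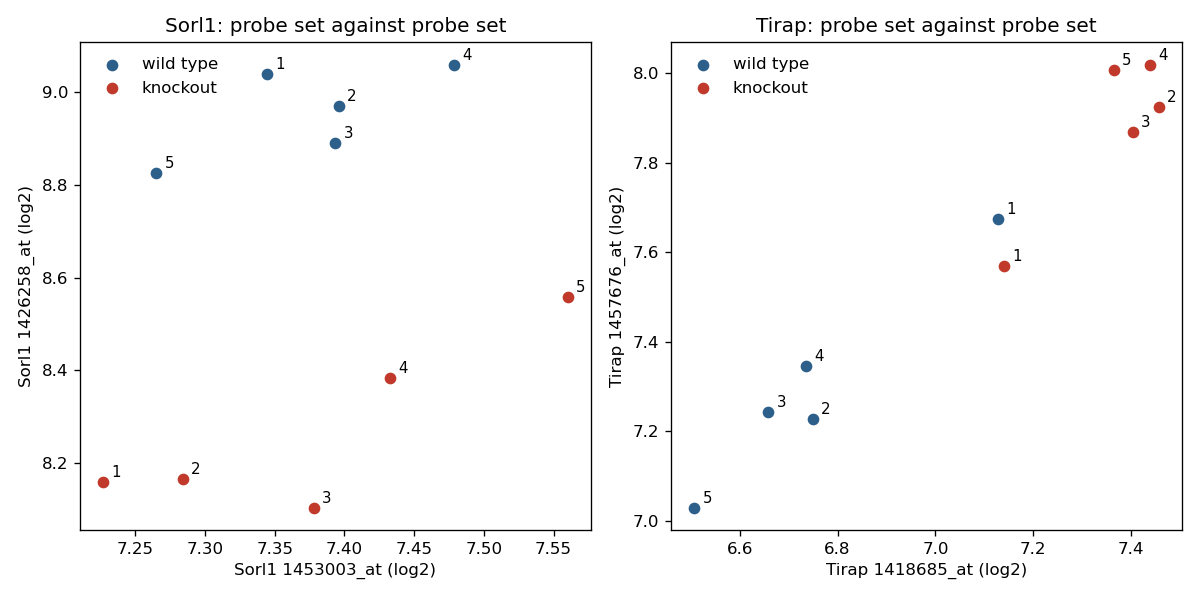
One probe set of a gene against another in each array (log2 values, digits for the replicate number), for Sorl1 on the left and Tirap on the right, with axes scaled to each probe set. The Sorl1 points form a line for each genotype, offset by the difference on 1426258_at, and the Tirap points form 1 line on which wild type 1 and knockout 1 lie side by side.

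Srpr, the SRP receptor subunit at the entry to the secretory path, was higher in knockouts. Its ordinary-variation probe set was brighter than 96.4% of all probe sets, the highest place of any member. Knockouts stood at 9.75, 9.80, 9.95, 9.91 and 9.86, and wild types at 9.65, 9.30, 9.26, 9.45 and 9.13. All knockouts lay above all wild types, with 0.10 between knockout 1 and wild type 1. The means were 9.85 ± 0.0800 (SD, n = 5) and 9.36 ± 0.199 (SD, n = 5), a log2 difference of 0.50 ± 0.10 SE that puts knockouts at 1.41 times wild types. The spread between wild types was wider than that between knockouts, with wild type 1 high and wild type 5 low.

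Trappc4, the TRAPP subunit of the next step, was lower in knockouts by a small and even amount. Wild types stood at 8.13, 8.08, 8.12, 8.04 and 8.11, and knockouts at 7.97, 7.98, 7.89, 7.83 and 7.91. The groups did not overlap and were 0.06 apart. The means were 8.09 ± 0.0356 (SD, n = 5) in wild types, the smallest SD of any member, and 7.91 ± 0.0633 (SD, n = 5) in knockouts (log2 difference −0.18 ± 0.03 SE). Wild types had 1.13 times the knockout level. The other Trappc4 probe set was of low variation.

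Tirap, the Toll-like receptor adaptor, was higher in knockouts through both of its probe sets. On 1418685_at knockouts stood at 7.14, 7.46, 7.40, 7.44 and 7.36, and wild types at 7.13, 6.75, 6.66, 6.73 and 6.51. The groups did not overlap, though knockout 1 and wild type 1 were 0.012 apart. On 1457676_at knockouts stood at 7.57, 7.92, 7.87, 8.02 and 8.01, and wild types at 7.67, 7.23, 7.24, 7.35 and 7.03. There the groups overlapped by this 1 pair, wild type 1 lying above knockout 1. The means were 7.36 ± 0.128 against 6.76 ± 0.230 on the first (SD, n = 5 each, log2 difference 0.61 ± 0.12 SE) and 7.88 ± 0.183 against 7.30 ± 0.236 on the second (SD, n = 5 each, 0.57 ± 0.13 SE). Knockouts had 1.52 and 1.49 times the wild-type level. Unlike in Sorl1, the gap between the Tirap probe sets stayed between 0.43 and 0.64 in all 10 arrays.

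Fez1, the kinesin-1 adaptor known from axons, was lower in knockouts through its only probe set. Wild types stood at 6.51, 6.78, 6.85, 6.76 and 6.83, and knockouts at 6.37, 6.31, 6.30, 6.10 and 6.06. The groups did not overlap, and wild type 1 lay nearest to the knockouts, 0.14 above knockout 1. The means were 6.75 ± 0.136 and 6.23 ± 0.140 (SD, n = 5 each), a log2 difference of −0.52 ± 0.09 SE. Wild types had 1.43 times the knockout level on the deposited scale. Knockouts 4 and 5 lay below the array medians, and a level there was not shown to be above background.

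Spa17, the sperm protein with the RII-like domain, was lower in knockouts at a similarly low level. Wild types stood at 6.93, 6.63, 6.64, 6.65 and 6.71, and knockouts at 6.41, 6.34, 6.27, 6.27 and 6.15. The groups were 0.22 apart, and here wild type 1 was the array farthest from the knockouts. The means were 6.71 ± 0.128 and 6.29 ± 0.0957 (SD, n = 5 each), a log2 difference of −0.42 ± 0.07 SE. Wild types had 1.34 times the knockout level on the deposited scale. Here too a knockout, knockout 5, lay below the array medians, where a level above background was not shown.

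Coro2b, the coronin at 468 places after Pou2f3 and the farthest of the members, was lower in knockouts. On 1434326_x_at wild types stood at 7.66, 7.85, 7.72, 7.81 and 7.94, and knockouts at 7.24, 7.53, 7.33, 7.32 and 7.31. The groups did not overlap and were 0.13 apart, with knockout 2 nearest to the wild types. The means were 7.80 ± 0.108 and 7.34 ± 0.109 (SD, n = 5 each), a log2 difference of −0.45 ± 0.07 SE that puts wild types at 1.37 times knockouts. The suffix of this probe set marks probes that can also match other transcripts, and the second Coro2b probe set was of low variation, so no other reading of the gene had a size.

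Pafah1b2, the acetylhydrolase subunit, showed the smallest separation relative to its spread among the lower members. On 1422792_at wild types stood at 6.68, 6.97, 6.97, 6.79 and 6.86, and knockouts at 6.45, 6.62, 6.62, 6.54 and 6.69. The groups overlapped by 1 pair, knockout 5 lying 0.0049 above wild type 1. The means were 6.85 ± 0.123 and 6.58 ± 0.0887 (SD, n = 5 each), a log2 difference of −0.27 ± 0.07 SE.

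The other 7 member probe sets were of low variation, with an SD over 10 arrays of at most 0.00118. In 3 of the 7 the genotypes did not overlap, against 1.32% of the 29499 low-variation probe sets of 1 gene. These were 1460390_at of Sorl1 and 1422793_at of Pafah1b2, lower in knockouts, and 1422791_at of Pafah1b2, higher in knockouts and so opposite in sign to the Pafah1b2 probe set that varied. Those of Srpr, Trappc4 and Coro2b overlapped, as did the fourth of Pafah1b2. In the 3 without overlap the groups were at most 0.00078 apart. The members were selected on this contrast, so nothing is read from the count of 3.

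How the arrays of one genotype differ from each other was not used to choose the genes. Deviations from the genotype means over 10 arrays were correlated for the 45 pairs of the 10 probe sets. The median r was −0.12, with a range from −0.85 to 0.94. Each value is a description, and within each array both probe sets of a pair share the RNA and the scan. Tirap and Srpr varied together, with r = 0.886 and r = 0.863 for the 2 Tirap probe sets. Wild type 1 was high in all 3 probe sets, and wild type 5 was low in all 3. Without knockout 1 and wild type 1, a choice made after seeing the data, the same values were 0.674 and 0.705 over 8 arrays. Fez1 ran against Tirap (r = −0.73 and −0.854) and against Sorl1 1426258_at (r = −0.805). Without those 2 arrays the first of these was −0.0241, the second −0.572 and that with Sorl1 −0.939, so the opposition of Fez1 to the first Tirap probe set rested on these arrays. Spa17 ran against Pafah1b2 (r = −0.814, and −0.416 without the same arrays).

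**Figure D3:**
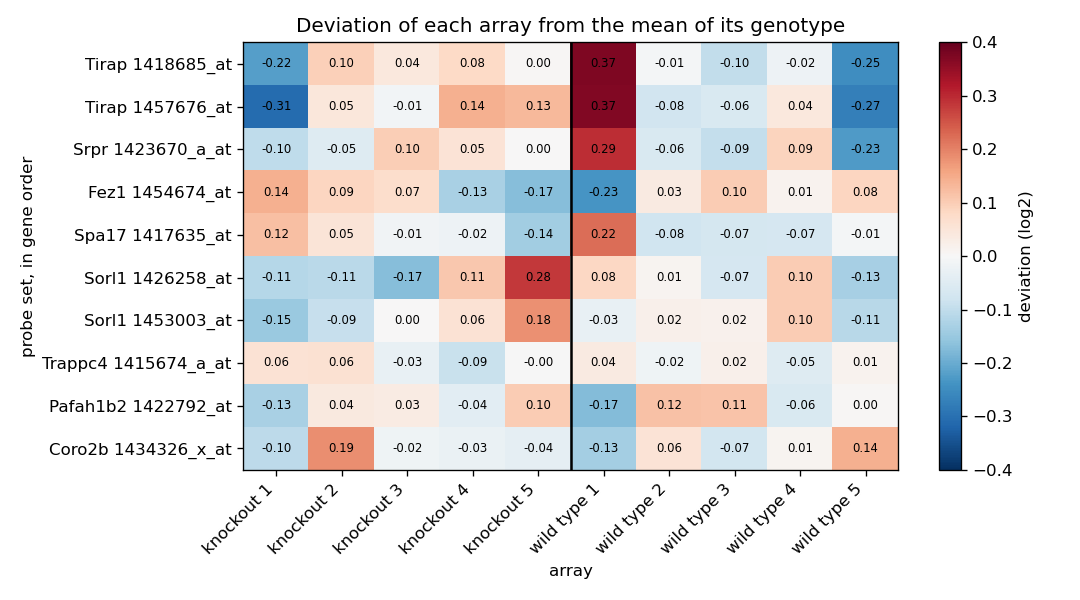
Deviation of each array from the mean of its own genotype (log2) for the 10 member probe sets in gene order, red above and blue below the mean. Wild type 1 stands out in the first 5 rows, at 0.37 in both Tirap probe sets, 0.29 in Srpr, −0.23 in Fez1 and 0.22 in Spa17.

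The probe sets of other genes most like each member within genotypes were found over the same 10 arrays, with a gene's own other probe sets left out. The most like Srpr was that of Fsd2 (r = 0.978), and for both Tirap probe sets it was that of St8sia5 (r = 0.935 and 0.949, beside 0.938 between the Tirap probe sets themselves). For Spa17 it was Smim26 (r = 0.987), followed by Uqcr10, a subunit of respiratory complex III (r = 0.979). For Pafah1b2 it was the initiation factor gene Eif4a1 (r = 0.972), for Coro2b the clone 6430548M08Rik (r = 0.962), for Fez1 Asb5 (r = 0.946) and for Trappc4 the desaturase gene Scd2 (r = 0.930). Each of these genes overlapped between genotypes, and each was picked as the highest, or for Uqcr10 the second highest, of 5444 or 5445 probe sets compared. Sorl1 1426258_at was most like a Jam2 probe set (r = 0.929) and a Fastkd1 probe set (r = 0.915), which were higher in knockouts without overlap, by 1.29 and 0.75 on the deposited scale, where Sorl1 was lower. Their wild-type means, 6.13 and 6.12, are under the median of every array, where a signal over background has not been shown. The other Sorl1 probe set was most like Kcna7 (r = 0.947) and, on another of its probe sets, Fastkd1 again (r = 0.946).

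In gene order Tirap, Srpr, Fez1, Spa17 and Sorl1 lie 269, 266, 226, 208 and 19 places before Pou2f3, and Trappc4, Pafah1b2 and Coro2b lie 44, 104 and 468 places after it. The higher members, Tirap and Srpr, are 3 places apart at one end of this row, and the lower ones run from Fez1 to Coro2b. Within 500 places of Pou2f3 there were 111 other probe sets of 1 gene and ordinary variation, of which 16 were lower and 10 higher in knockouts without overlap. Farther away on chromosome 9 the counts were 0 lower and 9 higher among 193. The median absolute difference was 0.17 within and 0.06 beyond 500 places. Genome-wide, 34 probe sets of this kind were lower without overlap. They hold the 16 above and also 5 of the members, since the 500 places take in every member.

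The nearest measured neighbours of the members did not all differ in the direction of the members. Of the 15 neighbour genes, 6 varied on an ordinary scale, and 4 of these had no overlap, 1 lower and 3 higher in knockouts. Over all ordinary probe sets of 1 gene, 4.13% had no overlap, 0.624% as lower and 3.51% as higher. Each neighbour was counted by its probe set with the largest SD over all arrays, which favours probe sets that differ between genotypes. Trappc4 lies between Slc37a4, the glucose 6-phosphate transporter, which was higher in knockouts (9.68 ± 0.219 against 9.11 ± 0.158, SD, n = 5), and Rps25, a ribosomal protein gene, which was lower (7.10 ± 0.0801 against 7.49 ± 0.0903, SD, n = 5). Sik3, the kinase next to Pafah1b2, was higher in knockouts by 0.34 ± 0.05 SE on a probe set that can match other transcripts and by 0.15 on its other, and Sidt2 on the other side differed by 0.02 ± 0.11 SE. The neighbour of Sorl1 towards Pou2f3 was the sterol desaturase gene Sc5d, higher by 0.90 where Sorl1 was lower. The neighbours of Srpr, Fez1, Spa17 and Coro2b, and Foxred1 between Tirap and Srpr, were of low variation.

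**Figure D4:**
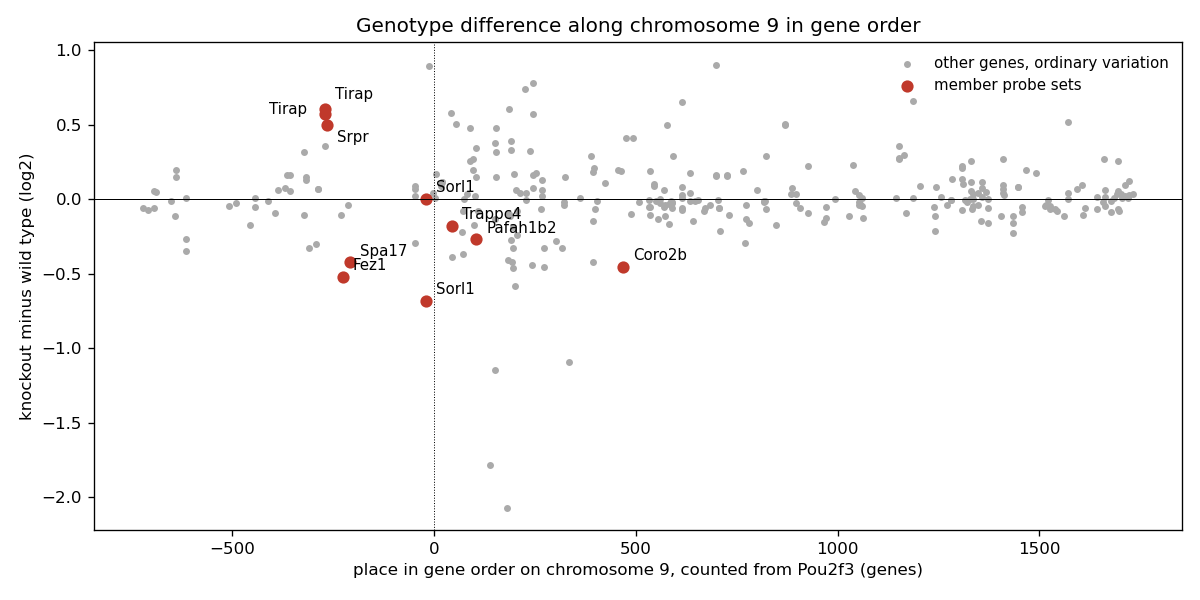
Knockout minus wild type (log2) for probe sets of 1 gene and ordinary variation along chromosome 9, by place in gene order from Pou2f3 (dotted line), with members in red and other genes in grey. Tirap and Srpr lie together between 0.50 and 0.61 before Pou2f3, and most members lie below 0 between 226 places before and 468 places after it.

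Dcps, the decapping enzyme gene 2 places before Tirap, also had wild type 1 apart from the other wild types. Its values were 7.38, 7.45, 7.51, 7.40 and 7.43 in knockouts and 7.48 in wild type 1, which lay among the knockouts. The other wild types, at 6.90 to 7.02, lay below all of them. The lowest was wild type 4, where in Tirap and Srpr it was wild type 5. Set on a scale from the mean of the other wild types (0) to the knockout mean (1), wild type 1 was at 1.10 for Dcps, 0.67 and 0.69 for Tirap, 0.65 for Srpr and 0.51 for Fez1. For Spa17, Sorl1 1426258_at and Trappc4 it was at −0.76, −0.16 and −0.26, on the far side from the knockouts. It was at 0.69 for Pafah1b2 and 0.35 for Coro2b. Other arrays lay as far out in some rows. Placed in the same way, wild type 5 was at −0.57 and −0.68 for Tirap and −0.65 for Srpr. For Pafah1b2 wild types 2 and 3 were at −0.61 and −0.59. From the other knockouts (0) to the wild-type mean (1), knockout 1 was at 0.42 and 0.59 for Tirap and −0.69 for Pafah1b2. Wild type 1 was the wild type nearest to the knockouts in 6 of the 9 probe sets compared, which leave out the level Sorl1 probe set. Among knockouts, knockout 1 was the nearest to the wild types in 5 of the 9. The scale was set up after the values were seen and uses the genotype difference that chose the members, and Dcps was named as a neighbour by rule.

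The other genes of the members' pathways were tested in the fit over all 45037 probe sets. Across 8 lists with 162 genes, 150 were measured, by 338 probe sets of which 80 varied on an ordinary scale. With limma, 2 of the 338 passed an adjusted p of 0.05, both higher in knockouts and both of the gene Akap13, against 0.191% of all probe sets. At an unadjusted p under 0.05 there were 27, or 7.99%, against 6.62% of all, and 19 of the 27 were of low variation. With quantile normalization or median centring the 27 became 9, and the 2980 of the whole table became 661 or 672. The median difference of the 80 was 0.02, and that of all 5446 ordinary probe sets of 1 gene was −0.0015. The lists were written with earlier results of these arrays known.

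Akap13 anchors protein kinase A, and it stood in the list of anchoring proteins that Spa17 belongs to by its domain. On 1440392_at knockouts stood at 7.04, 7.05, 7.06, 7.08 and 7.01, and wild types at 6.70, 6.78, 6.75, 6.84 and 6.74. The genotypes did not overlap. Knockouts were higher by 0.29 ± 0.03 SE on the log2 scale, or 1.22 times (limma adjusted p = 0.0069). On 1443923_at they were higher by 0.37 ± 0.04 SE, or 1.29 times (limma adjusted p = 0.0192). The second call was lost without any 1 of knockouts 2, 3 and 4 and wild types 1 to 4, at limma adjusted p values of 0.0523 to 0.0793, and the first was kept without any 1 array. The brightest Akap13 probe set differed by 0.12 (limma adjusted p = 0.965), and the other 4 were of low variation. Without the 5 arrays that carried epidermis or lymphocyte genes neither passed (limma adjusted p = 0.785 and 0.71), at differences of 0.27 and 0.33. Without knockout 1 and wild type 1 the adjusted p values from limma were 0.0512 and 0.0742. In the same list 8 of 59 probe sets had an unadjusted p under 0.05 by limma, 4 of them of ordinary variation. Of its 15 ordinary probe sets, from 10 genes, 12 were higher and 3 lower, with a median of 0.11. Akap13, Akap9 and Prkar2b each had more than 1 of the 15, all of them higher, so the 12 are not 12 genes. The 3 Akap9 values were 0.06, 0.31 (limma adjusted p = 0.358) and 0.40, and those of Prkar2b 0.06 and 0.12. Akap6 differed by 0.23 (limma adjusted p = 0.836) and Prkar2a, a regulatory subunit of the kinase, by 0.11 (0.913).

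Among sorting receptors and retromer genes, 0 of 58 probe sets passed with limma and 6 had an unadjusted p under 0.05. Of these 6, 2 were of ordinary variation. Of the 15 that varied, 11 were higher and 4 lower in knockouts, with a median of 0.09. The largest difference, 0.27, was of Bace1, which stood at 0.20 on its other ordinary-variation probe set. Bace1 lies 96 places after Pou2f3 on chromosome 9, among the places of the members. The lipoprotein receptor gene Vldlr accounts for 6 of the 15, with differences from 0.03 to 0.24, the last at a limma adjusted p of 0.298. App, whose product is a cargo of the Sorl1 receptor, differed by 0.19 (limma adjusted p = 0.774) and Sort1, another VPS10 receptor, by 0.17 (0.79). These values are on the opposite side of 0 from Sorl1 1426258_at, and no test compared them.

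For the SRP and the translocon, 0 of 55 probe sets passed with limma and 3 had an unadjusted p under 0.05, all of low variation. The 17 that varied had a median of −0.0063, with Srp19 at −0.10 (limma adjusted p = 0.902). The largest of 3 Sec62 values was 0.19 (0.908), beside 0.03 and 0.08, and the 4 Srp14 values ran from −0.04 (0.965) to −0.0025. The 17 ran from −0.10 to 0.19. For TRAPP and the vesicle coats of the step from endoplasmic reticulum to Golgi, 0 of 41 passed and 5 had an unadjusted p under 0.05. Only 1 of those with such a p was of ordinary variation. Of 5 that varied 2 were higher and 3 lower, among them Trappc13 at −0.23 (limma adjusted p = 0.726), Trappc2l at −0.15 (0.915) and the coat gene Sec24a at 0.13 (0.932).

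In the kinesin-1 and Fez list, 0 of 30 probe sets passed with limma and 2 had an unadjusted p under 0.05, 1 of them of ordinary variation. Kif5b, the kinesin-1 heavy chain outside neurons, stood at 8.35 ± 0.0859 in knockouts and 8.02 ± 0.0829 in wild types (SD, n = 5), without overlap (log2 difference 0.33 ± 0.05 SE, limma adjusted p = 0.0694). Fez2, the paralogue of Fez1, differed by −0.07 (limma adjusted p = 0.98) and the autophagy kinase gene Ulk1 by −0.11 (0.977).

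Of 37 probe sets of Toll-like receptors and their adaptors 0 passed with limma and 2 had an unadjusted p under 0.05, both of low variation. The 5 that varied ran from −0.06 to 0.08, with Cd14 at 0.08 (limma adjusted p = 0.976), Tollip at −0.06 (0.977) and Tlr4 at −0.02 (0.9996). For the acetylhydrolase and dynein list 0 of 23 passed, and 0 had an unadjusted p under 0.05. Pafah1b1, the Lis1 gene, was at −0.11 on one probe set (limma adjusted p = 0.947) and at 0.06 on another, Nudc differed by 0.06 (0.974) and the dynein heavy chain gene Dync1h1 by 0.03 (0.989). For coronins and actin regulators 0 of 35 passed and 1, of low variation, had an unadjusted p under 0.05. The muscle cofilin gene Cfl2 was at −0.06 (limma adjusted p = 0.94), Coro6 at 0.11 (0.94) and Dstn at −0.07 (0.954).

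**Figure D5:**
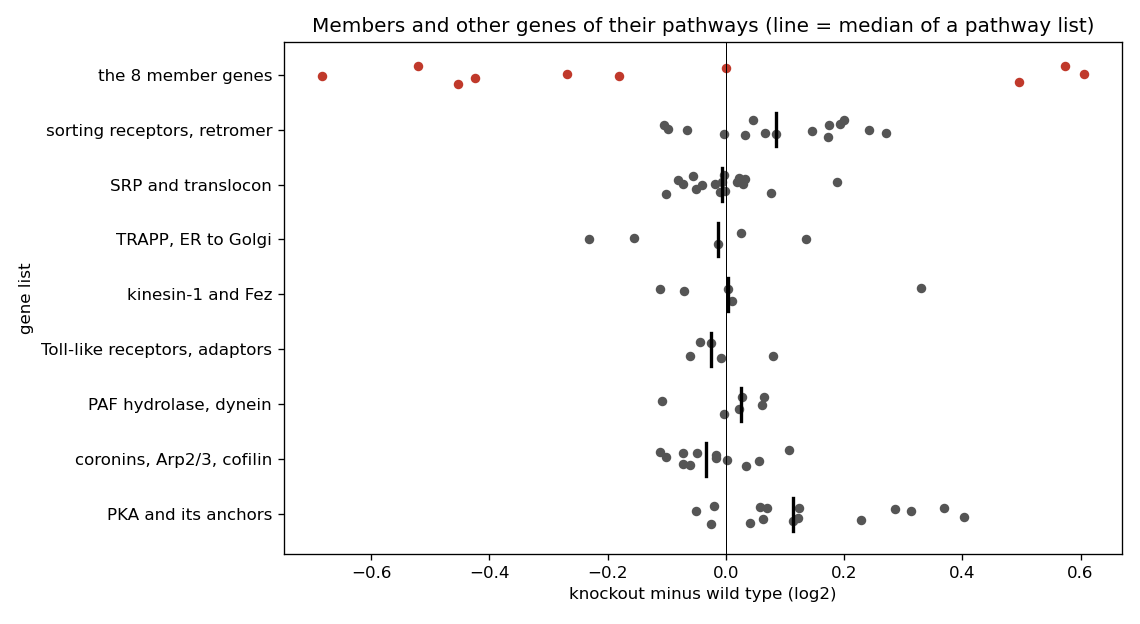
Knockout minus wild type (log2) of each ordinary-variation probe set of the 8 member genes (red) and of 8 lists of other genes of their pathways (grey, vertical line for the median). The pathway probe sets lie between −0.23 and 0.40, with the list of anchoring proteins reaching highest. The members were selected on this difference.

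RNA of other tissues differed between single arrays of both genotypes. Epidermis and hair genes, 14 of 14 varying, were above their mean over all arrays in knockouts 1 and 4 and wild types 1 and 3, by 0.49 to 0.88. Their summed linear level ran from 1021 to 3286 in knockouts and from 1009 to 2992 in wild types. Lymphocyte genes, 7 of 9 measured varying, were raised in knockout 5 (1.21) and wild type 3 (1.19), with sums of 597 to 1844 and 571 to 1915. Schwann cell genes, listed because Fez1 is known from nerve, had 3 of 6 measured varying and summed to 2869 to 3924 in knockouts and 2831 to 4057 in wild types. Macrophage genes, listed because Tirap acts in them, summed to 3080 to 4838 and 2625 to 5623, endothelial genes to 2198 to 2730 and 2215 to 2552, and adipocyte genes to 6144 to 9446 and 5827 to 10860. Erythrocyte genes were of low variation in all 3 measured. The ranges of the genotypes overlap in every list, and the part of these cells in the member differences was not tested.

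Without the 5 arrays that carried epidermis or lymphocyte genes, the member differences kept their sign in the 9 probe sets other than the level one of Sorl1. Sorl1 1426258_at then differed by −0.82, Tirap by 0.77 and 0.70, Srpr by 0.58, Fez1 by −0.49, Coro2b by −0.44, Spa17 by −0.35, Pafah1b2 by −0.25 and Trappc4 by −0.14, from 2 knockouts and 3 wild types. Of the 10 member probe sets, these 9 showed no overlap there, against 23% of ordinary probe sets of 1 gene. Without knockout 1 and wild type 1, also a choice made after seeing the data, the same 9 did, against 8.63%. Wild type 1 had been the nearest to the other genotype in 6 of these 9 and knockout 1 in 5, so leaving them out favours separation. The members were selected on this contrast, so nothing is read from either count. The ranges of RNA end controls overlapped between genotypes. The 3′ control probe set of Gapdh exceeded the 5′ one by 0.32 to 0.53 in knockouts and by 0.32 to 0.50 in wild types, and that of beta actin by 0.33 to 0.82 (mean 0.62) and by 0.33 to 0.72 (mean 0.53).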

How the data were processed

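Arrays of gastrocnemius RNA (100 ng) from 5 knockout and 5 wild-type mice were grouped by the genotype in the labels, which call them biological replicates. The authors deposited 1 table of positive values, read as log2 from their range of 4.93 to 13.96. The arrays were Affymetrix mouse expression arrays, per the labels, and their normalization software was not given in the sources used here. Values were used as deposited.

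Control rows (64) were left out, and 34945 of 45037 probe sets had 1 gene in the platform annotation, 932 several and 9160 none. Symbols and gene order came from RefSeq GRCm38.p6 (34741 matched). The fit was limma 3.58.1 in R 4.3.3 (lmFit, eBayes, Benjamini-Hochberg over all probe sets, threshold 0.05), after its code was checked on simulated data. Plain values used Python 3.11.15 and pandas 2.3.3. Member SEs come from the group SDs.

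The members and lists were chosen with earlier results of these data known. Named were all members, pathway genes that passed and up to 3 more per list by smallest p, the 3 probe sets most like each member, and the nearest measured neighbour on each side. A neighbour with several probe sets was counted by the one with the largest SD. Alternatives were quantile normalization, median centring, filters on level and SD, other eBayes settings, array weights, a replicate block and leaving arrays out.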

Additional observations from a re-analysis of the deposited data

Results flagged for a closer look

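Among 20 groups of 5 arrays, 1 array stood apart from the other 4 in 2, both times wild type 1. The rule was the Dixon critical value of 0.71 for the gap over the range, which chance passes in about 1 group in 20. The groups are probe sets on the same arrays and are not independent, so the 2 cannot be set against that rate. Wild type 1 was at 6.512 for Fez1, with the other wild types at 6.76 to 6.85, and the gap was 0.742 of the range. It was at 6.935 for Spa17, with the others at 6.63 to 6.71 and a gap of 0.758 of the range. For Fez1 it lay towards the knockouts and for Spa17 away from them.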

How the results depend on the processing

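All 10 member differences moved by less than their within-genotype SD in each of the 16 alternatives. Among these, the replicate block cannot move a difference of means, since each number occurs once in each genotype. The sign changed only for the level Sorl1 probe set, between −0.05 and 0.04. The 86 probe sets that passed with limma became 43 with quantile normalization, 143 with the SD filter, 5 with the replicate block, 31 to 57 with 1 array left out, and 0 without the 5 arrays that carried epidermis or lymphocyte genes (2672 at an unadjusted p under 0.05 by limma), where fewer samples remain. The 2 pathway probe sets, both of Akap13, became 0 with the replicate block (22 unadjusted by limma, with limma adjusted p = 0.0981 and 0.333 for Akap13), 1 to 2 with 1 array left out (without knockout 2, the second is a low-variation probe set of Sec63 and not of Akap13), and 0 without the 5 arrays (18 unadjusted by limma). With either filter Kif5b passed too (limma adjusted p = 0.0438 and 0.0184). Same-numbered arrays were not treated as pairs in the main fit. Their correlations of deviations ran from −0.395 to 0.324, and 4 of 10 arrays correlated best with their own number. These values do not settle whether such arrays pair. The octamer was in 0 member windows and, without its last base, in 1. The cause of these shifts was not tested.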
